A study of Homo sapiens with 9 samples.

Results

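The MYC, MAX and MXD network is a set of transcription factors that compete for a shared partner. It is described here by 10 genes, MYC, MYCN, MYCL, MAX, MXD1, MXD3, MXD4, MXI1, MNT and MLX, chosen by symbol, and all 10 were found among the 46427 genes of the deposited tables. RNA was sequenced from cells of H9, a long-established line of human embryonic stem cells (hESC), in 3 groups of 3 libraries. The first group was neural progenitor cells (NPC), taken on day 11 of differentiation towards midbrain dopaminergic neurons, that had been given bafilomycin A1 (BafA1). This compound inhibits the vacuolar proton pump and stops lysosomes from acidifying and clearing autophagosomes, and it was used at 10 nM in exposures of 6 h. The second was control NPC at day 11 without BafA1, and the third was undifferentiated hESC without treatment. Both NPC groups shared the differentiation agents LDN193189 (200 nM) and SB431542 (10 µM), inhibitors of BMP and of TGF-beta receptor kinases, purmorphamine (2 µM), which activates Hedgehog signalling, and CHIR99021 (3 µM), which inhibits GSK3. The labels list exposure windows between day 4 and day 10 and do not say which window the sequenced cells had. All cells derive from this single line, and the labels do not say whether replicates were separate cultures, so p-values measure only the spread between these libraries.

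MYC, MYCN and MYCL encode activators that bind DNA as pairs with MAX at the E-box, the palindrome CACGTG, and promote ribosome production, metabolism and cell division. MXD1, MXI1, MXD3, MXD4 and MNT encode repressors that take MAX as their partner at such sites and recruit SIN3 and histone deacetylases. MLX replaces MAX as partner of MondoA, the product of MLXIP, which responds to glucose metabolites, and MLX can also pair with MXD1, MXD4 and MNT. In stem cells and progenitors MYC and MYCN are known for sustaining proliferation, while MXD genes are known for rising as cells leave the cycle.

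Windows of 250 bases before the annotated gene starts were available from RefSeq (GRCh38.p14) for 9 of the 10 genes, 12 windows in all. No window of MYC was used here, so the letters before its start were not searched. Both windows of MAX lie within the annotated gene (65006101 to 65102695, minus strand), so the letters before its outermost start were not searched either. The E-box letters CACGTG, which read the same on both strands, occurred in the windows of 3 genes, MXD4, MNT and MLX. Of all 35116 windows 6.35% held these letters. The 30 bases around each are shown 5′ to 3′ on the gene's strand with the E-box in capitals, because this is the sequence that every dimer of the network is known to read. They lie at chr4:2262330-2262359 (minus strand), chr17:2401236-2401265 (minus strand) and chr17:42567038-42567067 (plus strand), with the E-box starting 238, 193 and 50 bases before the gene start.
MXD4: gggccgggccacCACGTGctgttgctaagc
MNT: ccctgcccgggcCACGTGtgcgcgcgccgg
MLX: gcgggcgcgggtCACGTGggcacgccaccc

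MXI1 has 3 annotated starts, and their windows are shown because MXI1 became the most abundant network transcript in BafA1 NPC. MXI1 is also known from other cells as a gene induced at low oxygen, where HIF factors bind sites with the core letters ACGTG or GCGTG. These letters were searched on both strands and are in capitals, so CACGT and CACGC mark the opposite strand. ACGTG also lies within the E-box, but no E-box occurred in these windows. The first window (chr10:110207355-110207604, plus strand) held neither motif. The second (chr10:110209981-110210230) held each of them at 1 place, and the third (chr10:110225746-110225995) held GCGTG at 1 place. Of all windows 43.2% held at least 1 of the motifs, so a match is a description of the letters and not of a bound site.
MXI1 start 1: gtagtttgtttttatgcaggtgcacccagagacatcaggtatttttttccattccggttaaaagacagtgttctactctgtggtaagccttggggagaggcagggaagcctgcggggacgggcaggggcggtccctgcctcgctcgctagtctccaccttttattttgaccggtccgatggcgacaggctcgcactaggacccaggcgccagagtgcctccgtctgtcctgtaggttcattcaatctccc
MXI1 start 2: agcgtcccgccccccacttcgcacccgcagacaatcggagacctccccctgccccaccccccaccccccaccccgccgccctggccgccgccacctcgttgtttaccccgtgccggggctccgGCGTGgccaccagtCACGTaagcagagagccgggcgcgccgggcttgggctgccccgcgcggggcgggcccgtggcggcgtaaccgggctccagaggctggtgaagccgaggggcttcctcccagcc
MXI1 start 3: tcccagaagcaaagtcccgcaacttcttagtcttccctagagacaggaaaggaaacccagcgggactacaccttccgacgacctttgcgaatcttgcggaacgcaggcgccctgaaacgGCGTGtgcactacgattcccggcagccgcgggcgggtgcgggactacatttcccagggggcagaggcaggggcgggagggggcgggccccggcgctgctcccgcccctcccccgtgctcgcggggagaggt

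Library totals were 43124679 to 69703791 counts in BafA1 NPC, 49479733 to 56054194 in control NPC and 55706968 to 66544642 in hESC, and all 10 genes passed the filter on low counts. Of 10 pluripotency markers 2 had no count in BafA1 NPC (TDGF1 and UTF1) and 4 had none in control NPC (POU5F1, TDGF1, PRDM14 and UTF1), while all 10 reached 1 CPM in hESC. The 10 summed to 1112 to 1199 CPM in BafA1 NPC, 921 to 1004 in control NPC and 5739 to 6061 in hESC, and SOX2 and LIN28A, which neural progenitors also express, made up most of the NPC sums. Summed levels of 10 neural progenitor markers were 9895 to 11688 CPM in BafA1 NPC, 6968 to 7745 in control NPC and 631 to 683 in hESC. VIM alone averaged 9193 CPM in BafA1 NPC and 5385 in control NPC and made up most of both NPC sums. Of these 10 markers 5 were called higher and 2 lower in BafA1 NPC against control NPC, against 20.8% and 20.7% of all genes tested. SOX1 (14.4 against 25.2 CPM) and NR2F1 (106 against 167 CPM) averaged lower. All marker levels here are CPM of the library total, while other gene levels in CPM are TMM-scaled. TMM factors were 0.924 to 1.02 in BafA1 NPC and 1.05 to 1.06 in control NPC. The BafA1 and control libraries also did not overlap in the sums of 10 mesenchymal markers (2132 to 2393 against 1274 to 2071 CPM), 10 endoderm markers (259 to 303 against 143 to 226) and 10 neural crest markers (52.4 to 61.7 against 33.0 to 39.4). They did overlap in the sums of 10 midbrain floor plate markers (566 to 897 against 579 to 967 CPM) and 10 postmitotic neuron markers (637 to 757 against 696 to 737). The sums that did not overlap rest on few genes, and called members of the mesenchymal and endoderm lists moved both ways. Of the mesenchymal, endoderm and neural crest markers 9, 8 and 9 were tested. Over all genes tested the shares called were again 20.8% higher and 20.7% lower. Of the mesenchymal markers 3 were called higher, COL1A1 among them (1894 against 1277 CPM), and 2 lower, PRRX1 (14.6 against 46.1 CPM) and LUM (9.82 against 34.1 CPM). Of the endoderm markers 2 were called higher, CXCR4 among them (209 against 98.5 CPM), and 1 lower, FOXA1 (33.7 against 55.2 CPM). Of the neural crest markers 2 were called higher and 0 lower, and NGFR averaged 28.0 CPM in BafA1 NPC against 9.44 in control NPC. The neural crest genes SOX10 and FOXD3 had no count in control NPC and FOXD3 had none in BafA1 NPC, and the endoderm gene GATA4 had none in either NPC group. Messenger RNA of the mitochondrial genome was 2.00 to 2.21% of counts in BafA1 NPC, 2.97 to 3.17% in control NPC and 3.79 to 4.64% in hESC. The rank correlation across genes of a library's deviation with GC content was -0.02 to 0.05 in BafA1 NPC. It was -0.33 to -0.14 in control NPC and 0.11 to 0.19 in hESC. Genes are not independent replicates in such a correlation. The part of these differences in the results was not tested, and in bulk RNA fewer cells of a type and less RNA per cell cannot be told apart.

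**Figure D1:**
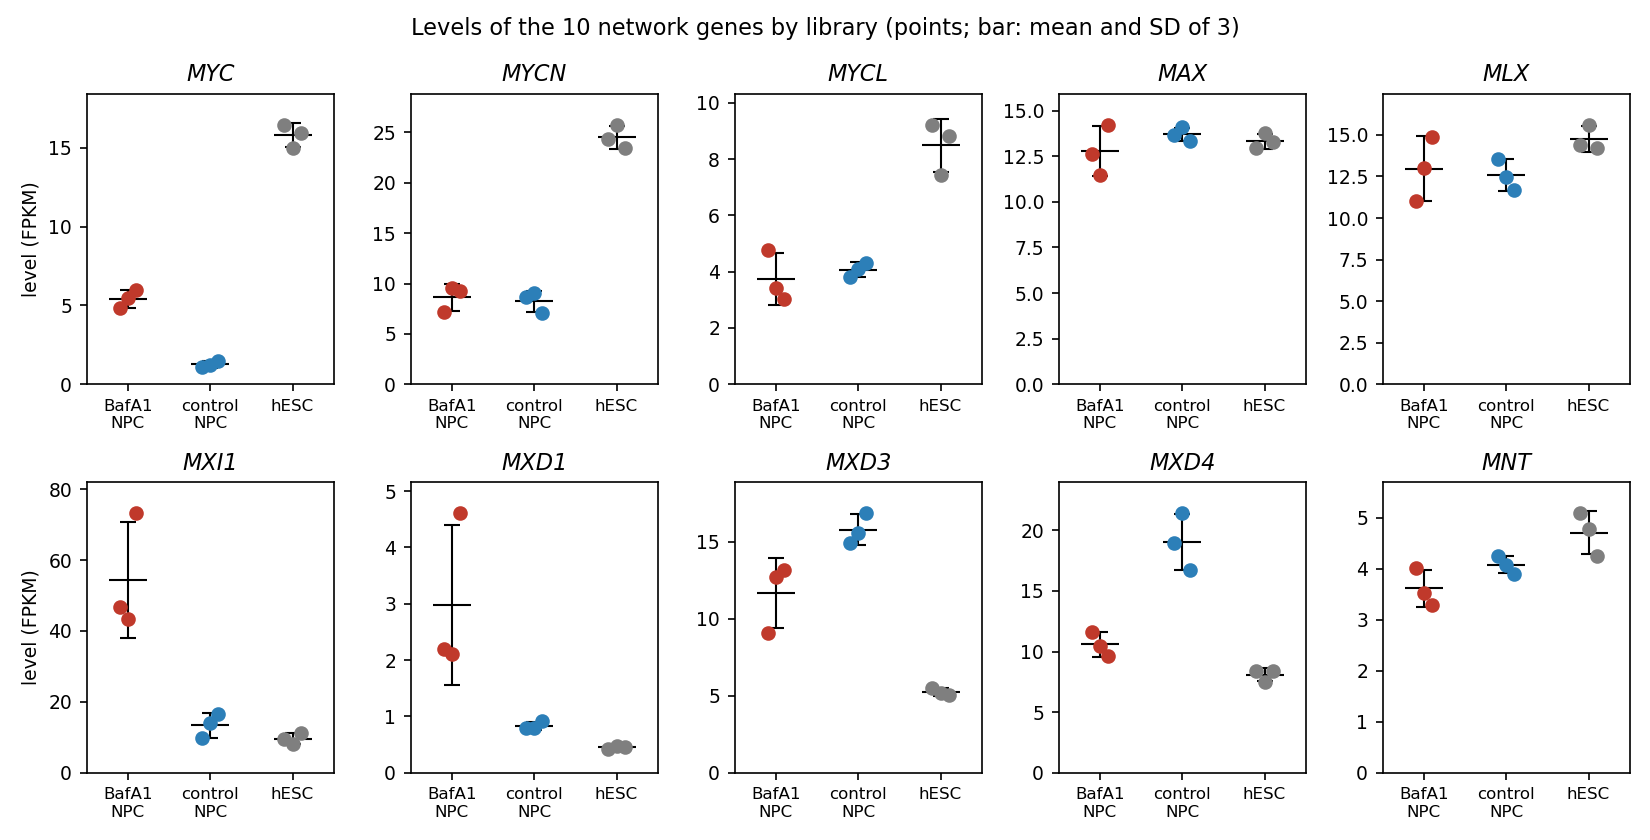
Levels of the 10 network genes in FPKM (vertical axes, each from 0) in the 3 libraries of BafA1 NPC, control NPC and hESC (points), with the mean and SD as bars. MYC stood at 4.86 to 5.99 FPKM in BafA1 NPC, between control NPC and hESC, while MXI1 and MXD1 were highest in BafA1 NPC and MXD4 was highest in control NPC.

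The comparison of BafA1 NPC with control NPC asked what lysosomal inhibition changed. MYC, MXI1 and MXD1 rose about as far as each other on the log2 scale, MXD4 fell, and the other 6 genes were not called by edgeR's quasi-likelihood test at a Benjamini-Hochberg adjusted p under 0.05. An activator gene and a pair of antagonist genes thus moved the same way. The share of network genes called, 4 of 10, is close to the background, since 41.5% of the 20685 genes tested were called in this comparison (20.8% higher and 20.7% lower). The sizes of the rises were less common. Only 1.47% of tested genes had a log2 change at least as high as that of MYC, 1.58% as high as that of MXI1 and 2.04% as high as that of MXD1.

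Among the activators, MYC (chromosome 8, 127735434 to 127742951) was at 4.86, 5.46 and 5.99 FPKM in the BafA1 libraries, against 1.08, 1.23 and 1.48 FPKM in the control libraries. The lowest BafA1 library lay more than 3-fold above the highest control library, and the edgeR log2 change was 2.21 ± 0.14 SE (adjusted p = 4.68e-06, n = 3 each, a 4.64-fold rise). MYCN (chromosome 2, 15940550 to 15947004), the family member known for its role in the developing nervous system, was at 7.13, 9.56 and 9.24 FPKM in BafA1 NPC, against 8.62, 9.06 and 7.08 FPKM in control NPC. MYCL (chromosome 1, 39895428 to 39901917), the third family gene, was at 4.78, 3.42 and 3.01 FPKM in BafA1 NPC, against 3.80, 4.10 and 4.32 FPKM in control NPC. The groups overlapped for MYCN and MYCL, with log2 changes of 0.23 ± 0.13 (adjusted p = 0.172) and 0.00 ± 0.15 (adjusted p = 1). Without BafA1 replicate 1 MYCN was called higher (0.37, adjusted p = 0.0169).

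Among the antagonists, MXI1 (chromosome 10, 110207605 to 110287365) was at 46.7, 43.2 and 73.2 FPKM in BafA1 NPC, against 9.70, 13.9 and 16.6 FPKM in control NPC (log2 change 2.16 ± 0.22 SE, edgeR adjusted p = 3.34e-05). MXD1 (chromosome 2, 69915109 to 69942945), the founding MXD gene, was at 2.20, 2.11 and 4.61 FPKM in BafA1 NPC, against 0.790, 0.802 and 0.921 FPKM in control NPC (1.97 ± 0.25, adjusted p = 1.28e-04). For both genes all BafA1 libraries lay above all control libraries, and BafA1 replicate 3 stood apart as the highest. Without that library, which is also the deepest, MXI1 rose by 1.91 (adjusted p = 1.23e-04) and MXD1 by 1.53 (adjusted p = 9.63e-05). Low genes are compressed on the log2(FPKM + 1) scale, where limma gave MXD1 a change of 1.06 and MYC one of 1.51, both still called.

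MXD4 (chromosome 4, 2247432 to 2262109), which like the other MXD genes encodes a repressor with a SIN3-binding part, was at 11.6, 10.5 and 9.65 FPKM in BafA1 NPC, against 19.0, 21.4 and 16.8 FPKM in control NPC. The groups did not overlap, and MXD4 fell by 0.70 on the log2 scale (SE 0.10, edgeR adjusted p = 2.76e-04). MXD3 (chromosome 5, 177305499 to 177312752), the MXD gene known for expression in dividing progenitors, was at 9.05, 12.7 and 13.2 FPKM in BafA1 NPC, against 14.9, 15.6 and 16.9 FPKM in control NPC. All its BafA1 libraries lay under all control libraries, but the change of -0.28 ± 0.15 was not called (adjusted p = 0.154). MXD3 was called lower under scaling by library size alone (-0.42, adjusted p = 0.0280), by limma on log2(FPKM + 1) (-0.42, adjusted p = 0.0191) and after correction for GC and length (-0.53, adjusted p = 0.0116).

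MNT (chromosome 17, 2384073 to 2401060), the broadly expressed antagonist, was at 4.01, 3.53 and 3.30 FPKM in BafA1 NPC, against 4.24, 4.08 and 3.91 FPKM in control NPC (edgeR log2 change 0.04 ± 0.11, adjusted p = 0.816). MAX (chromosome 14, 65006101 to 65102695), the common partner, was at 12.6, 11.5 and 14.2 FPKM in BafA1 NPC, against 13.7, 14.1 and 13.3 FPKM in control NPC (0.12 ± 0.08, adjusted p = 0.247). MLX (chromosome 17, 42567100 to 42573203) was at 11.0, 13.0 and 14.9 FPKM in BafA1 NPC, against 13.6, 12.5 and 11.7 FPKM in control NPC (0.18 ± 0.12, adjusted p = 0.224). The groups of all 3 overlapped in FPKM, and MLX was called higher only without BafA1 replicate 1 (0.32, adjusted p = 0.0169). In TMM-scaled CPM the groups of 6 of the 10 genes did not overlap, MAX among them, against 49.2% of all tested genes.

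**Figure D2:**
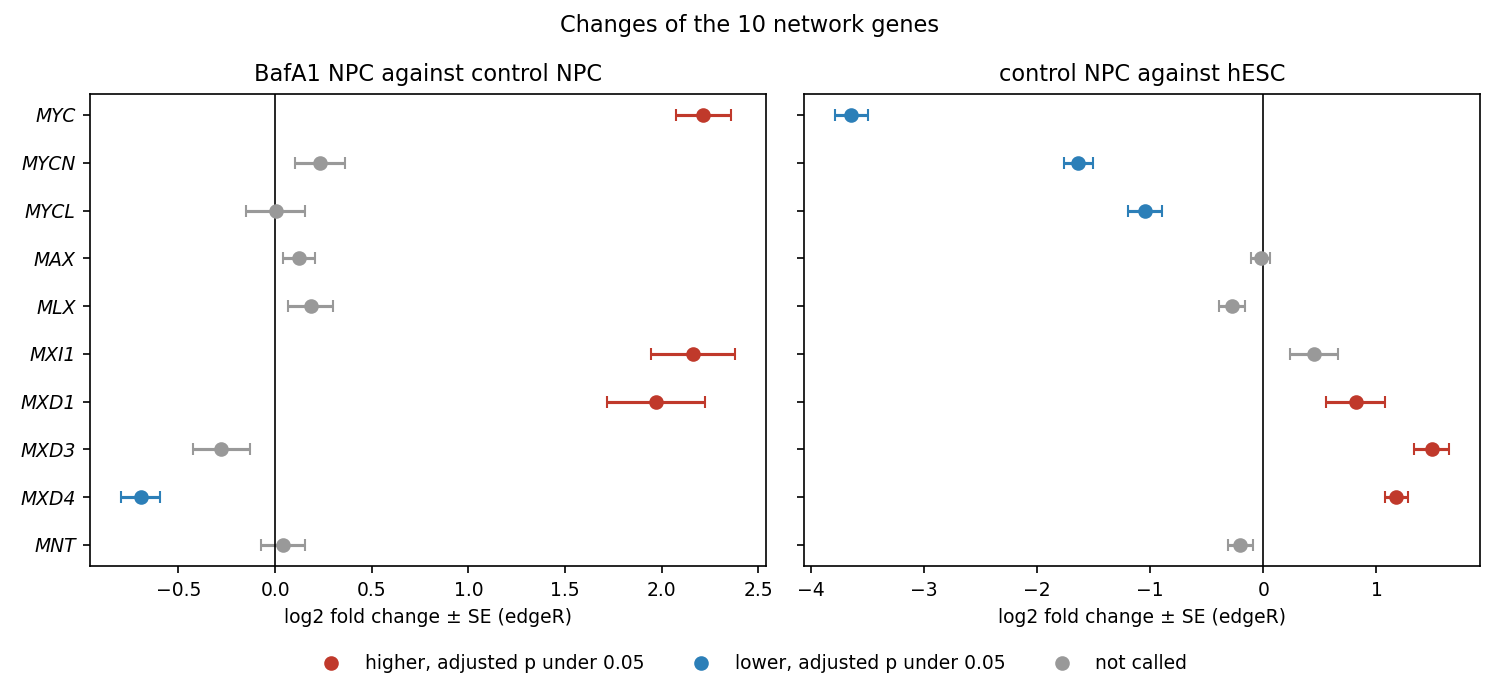
Log2 fold changes from edgeR, with SE derived from its F statistic (horizontal axes), of the 10 network genes, coloured by call. The left panel shows BafA1 NPC relative to control NPC and the right panel control NPC relative to hESC. On the left MYC, MXI1 and MXD1 lie at 1.97 to 2.21 and MXD4 at -0.70. On the right the MYC family lies between -3.64 and -1.05, and MXD1, MXD3 and MXD4 lie above 0.

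The comparison of control NPC with hESC asked what differentiation changed, and it shares the control libraries with the first comparison, so values are set side by side without a test of likeness. All 3 MYC family genes fell and 3 of the 5 antagonist genes rose. Calls were made for 6 of the 10 genes, against 64.5% of all genes tested (33.0% higher and 31.6% lower). Again the count is near the background. The other antagonist genes, MXI1 and MNT, were not called, and whether direction differs by role was not tested. In TMM-scaled CPM the groups of 7 genes did not overlap, against 72.8% of all tested genes.

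MYC was at 1.08 to 1.48 FPKM in control NPC, against 16.5, 15.0 and 16.0 FPKM in hESC. Its log2 change was -3.64 ± 0.15 SE (edgeR adjusted p = 1.30e-09), and 5.01% of tested genes fell at least as far. MYCN was at 7.08 to 9.06 FPKM in control NPC, against 24.3, 25.8 and 23.5 FPKM in hESC (-1.64 ± 0.13, adjusted p = 4.08e-07). MYCL was at 3.80 to 4.32 FPKM in control NPC, against 9.22, 7.42 and 8.81 FPKM in hESC (-1.05 ± 0.15, adjusted p = 6.57e-05). In each of these genes every control library lay under every hESC library and MYC was the least abundant family gene in control NPC.

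MXD3 was at 14.9 to 16.9 FPKM in control NPC, against 5.50, 5.16 and 5.07 FPKM in hESC (1.49 ± 0.15, edgeR adjusted p = 3.79e-06). MXD4 was at 16.8 to 21.4 FPKM in control NPC, against 8.43, 7.46 and 8.39 FPKM in hESC (1.17 ± 0.10, adjusted p = 8.91e-07). MXD1 was at 0.790 to 0.921 FPKM in control NPC, against 0.424, 0.474 and 0.464 FPKM in hESC (0.82 ± 0.26, adjusted p = 0.0152). The groups of these 3 genes did not overlap, but the call for MXD1 was lost without hESC replicate 1 (0.76, adjusted p = 0.0531), with limma on log2(FPKM + 1) (0.34, adjusted p = 0.141) and after correction for GC and length (0.45, adjusted p = 0.153).

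MXI1 was at 9.70 to 16.6 FPKM in control NPC, against 9.58, 8.15 and 11.1 FPKM in hESC, and the groups overlapped (0.44 ± 0.21, edgeR adjusted p = 0.0854). It was called higher without control replicate 1 (0.63, adjusted p = 0.0165), under scaling by library size alone (0.55, adjusted p = 0.0339) and with the replicate number as a block (0.42, adjusted p = 0.0216). MNT was at 3.91 to 4.24 FPKM in control NPC, against 5.09, 4.78 and 4.26 FPKM in hESC. Its log2 change of -0.20 ± 0.11 (adjusted p = 0.140) turned to 0.25 and was called after correction for GC and length (adjusted p = 0.0331). MAX, at 13.3 to 14.1 FPKM in control NPC, against 12.9, 13.7 and 13.3 FPKM in hESC, had the smallest change of the 10 (-0.02 ± 0.08, adjusted p = 0.812). MLX was at 11.7 to 13.6 FPKM in control NPC, against 14.4, 15.6 and 14.2 FPKM in hESC, and its change of -0.28 ± 0.12 missed the threshold (adjusted p = 0.0525). It passed in the fit without control replicate 1 (-0.33, adjusted p = 0.0459), with DESeq2 (-0.32, adjusted p = 0.0197), with RLE factors (-0.32, adjusted p = 0.0279) and in the fit of the 6 libraries compared (-0.29, adjusted p = 0.00821).

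Set directly against hESC, BafA1 NPC had lower MYC (-1.43 ± 0.13 SE, edgeR adjusted p = 1.29e-06), MYCN (-1.40 ± 0.13, adjusted p = 1.23e-06) and MYCL (-1.04 ± 0.15, adjusted p = 5.65e-05). MYC in BafA1 NPC thus remained below its hESC level, by about as much as MYCN. MXD1 (2.79 ± 0.26, adjusted p = 1.58e-06), MXI1 (2.61 ± 0.22, adjusted p = 6.42e-07), MXD3 (1.21 ± 0.15, adjusted p = 1.87e-05) and MXD4 (0.48 ± 0.10, adjusted p = 0.00115) were higher. In all 7 of 10 genes were called, 4 higher and 3 lower, against 70.4% of all genes tested (35.5% higher and 34.8% lower), and the groups of 7 genes did not overlap, against 74.6%. MAX, MNT and MLX were not called (adjusted p = 0.291, 0.216 and 0.487), although MAX was called higher after correction for GC and length (0.27, adjusted p = 0.00911), and MNT was called lower by limma on log2(FPKM + 1) (-0.31, adjusted p = 0.0142) and without BafA1 replicate 1 (-0.28, adjusted p = 0.0396).

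FPKM is per length, so levels of different genes can be set side by side, but the order depends on the length used. If FPKM was scaled to each library's total count, MYC was divided by about 4494 to 4816 bases (group means), while its longest GENCODE transcript has 2366. MXD3 was then divided by about 1274 to 1307 bases against 2279. These lengths are approximate, since MXD4, with 1 transcript, also differed between BafA1 NPC (4618) and hESC (4403). The order in FPKM is therefore given with that per kb of the longest transcript, an alternative chosen after seeing the data. In BafA1 NPC MXI1 led with a mean of 54.4 ± 16.4 FPKM (SD, n = 3) and did not overlap the next gene, MLX, while MLX, MAX, MXD3 and MXD4 followed at 13.0 to 10.6 FPKM, each overlapping its neighbour. In control NPC MXD4 (19.0 ± 2.33) and MXD3 (15.8 ± 0.977) led and overlapped, and MYC and MXD1 were last at 1.26 ± 0.202 and 0.837 ± 0.0724 FPKM. In hESC MYCN led with 24.5 ± 1.17 FPKM, clear of MYC (15.8 ± 0.763) and MLX (14.8 ± 0.756), which overlapped. MAX stayed within 12.8 to 13.7 FPKM in the means of all 3 groups. Per kb of the longest transcript MXI1 still led in BafA1 NPC (66.7 ± 18.8 CPM per kb, no overlap with MLX), but MYC there stood at 11.4 ± 1.33 and overlapped MXD4 and MYCN. MXD4 still led in control NPC (19.4 ± 2.08), overlapping MXI1, while MXD3 was sixth at 8.40 ± 0.615, and MYC and MXD1 were again last. MYC (30.6 ± 1.43) and MYCN (29.2 ± 1.95) overlapped at the top in hESC.

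Summed over MYC, MYCN and MYCL, the family stood at 16.8 to 18.4 FPKM in BafA1 NPC, 12.9 to 14.4 in control NPC and 48.2 to 50.0 in hESC. MYC made up 30.5 ± 2.07% of that sum in BafA1 NPC, 9.33 ± 1.88% in control NPC and 32.4 ± 1.11% in hESC. The share of MYC in BafA1 NPC overlapped that in hESC, at a family sum well under it. Per kb of the longest transcript the share of MYC was 42.2 ± 1.92% in BafA1 NPC, 15.0 ± 3.30% in control NPC and 44.3 ± 1.51% in hESC. MYCN made up 48.3 ± 5.09% of the FPKM sum in BafA1 NPC, 60.6 ± 4.89% in control NPC and 50.3 ± 2.81% in hESC. It was the largest part in control NPC by either length, whereas per kb of the longest transcript its shares in BafA1 NPC (40.8 ± 3.67%) and hESC (42.3 ± 2.82%) were close to those of MYC.

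The 5 antagonist genes summed to 72.0 to 104 FPKM in BafA1 NPC, 48.6 to 55.8 in control NPC and 26.0 to 29.3 in hESC. MXI1 made up 64.6 ± 5.32% of that sum in BafA1 NPC, 25.0 ± 5.12% in control NPC and 34.1 ± 3.45% in hESC. Without MXI1 the other antagonists summed to 26.9 to 30.7 FPKM in BafA1 NPC, against 38.4 to 41.9 in control NPC, so that the order of these groups turned round. The ratio of the antagonist sum to the MYC family sum was 3.91 to 5.70 in BafA1 NPC, 3.60 to 4.28 in control NPC and 0.540 to 0.607 in hESC. That ratio set both NPC groups apart from hESC, and the NPC groups overlapped in it, as they also did per kb of the longest transcript (2.91 to 4.27 in BafA1 NPC, 2.75 to 3.20 in control NPC and 0.391 to 0.441 in hESC). These are transcript levels, and protein amounts were not measured.

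**Figure D3:**
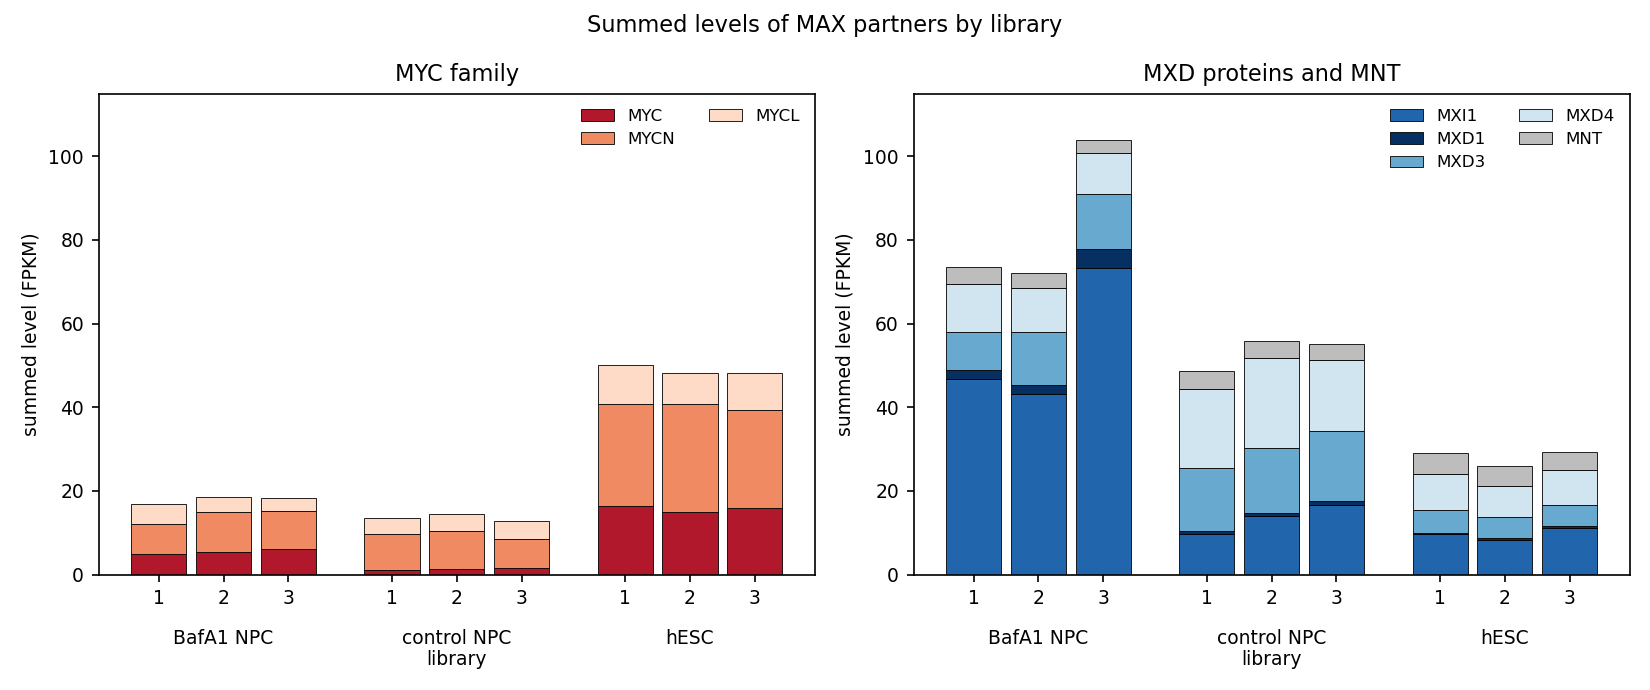
Summed FPKM (vertical axes, from 0) of the MYC family genes (left) and of MXI1, MXD1, MXD3, MXD4 and MNT (right) in each library of BafA1 NPC, control NPC and hESC, with the part of each gene in colour. The MYC family sum is 48.2 to 50.0 FPKM in hESC and at most 18.4 in the NPC libraries, while MXI1 fills most of the antagonist sum in BafA1 NPC.

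Genes with the most similar pattern were taken by Pearson's correlation of log2 CPM over the 9 libraries. The 10883 candidate genes had a mean of at least 5 CPM. Unnamed and antisense symbols were left out, as were all symbols ending in P and digits, among them named genes such as NOP56 and USP7. The correlations mostly reflect the differences between the 3 groups that all points share, and they are descriptions without a test. Closest to MXI1 were VEGFA, which encodes a growth factor of blood vessels (r = 0.9997), HILPDA, a lipid droplet protein gene (r = 0.997), and ENO2, the neuronal enolase gene (r = 0.997), while 5.91% of the candidate genes had an r over 0.9. VEGFA averaged 395 CPM in BafA1 NPC, 102 in control NPC and 78.9 in hESC. Closest to MYC were the kinase genes CDK18 (r = 0.996) and TESK2 (r = 0.994) and the dystrobrevin gene DTNB (r = 0.993), with 4.81% of candidates over 0.9. CDK18 averaged 24.5 CPM in BafA1 NPC, 8.24 in control NPC and 56.1 in hESC. Closest to MXD1 were HERPUD1, which acts in degradation at the endoplasmic reticulum (r = 0.992), PTTG1IP (r = 0.990) and the repressor gene NFIL3 (r = 0.990). Closest to MXD4 was APCDD1, a WNT inhibitor gene (r = 0.987), at 76.6 CPM in BafA1 NPC, 281 in control NPC and 24.0 in hESC. INTS6L (r = 0.985) and AGFG2 (r = 0.984) followed.

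For the other genes the closest were SLC25A39, RBFOX3 and PTGES2 for MYCN (r = 0.993 to 0.997), NPEPL1, ZNF749 and GPR63 for MYCL (0.977 to 0.981) and LDAH, HPF1 and DECR1 for MXD3 (0.992 to 0.995). They were WDFY1, LMAN1 and the readthrough gene STX16-NPEPL1 for MAX (0.924 to 0.958), AKT2, BICRA and ZC3H7B for MNT (0.912 to 0.922) and SLC25A15, MTO1 and STRAP for MLX (0.950 to 0.969). STX16-NPEPL1 shares exons with its parent genes, so its counts are uncertain. MAX, MNT and MLX had the fewest genes with an r over 0.9 (0.0735%, 0.0276% and 0.110% of candidates).

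The MLX arm of the network was read from MLXIP, MLXIPL and the genes TXNIP and ARRDC4, which are known targets of MondoA and encode arrestins that limit glucose uptake. MGA, a partner of MAX and not part of this arm, was listed with them. In BafA1 NPC against control NPC 2 of these 5 rose and 1, MGA, fell, against 20.8% and 20.7% of all genes. ARRDC4 rose to 174 ± 38.7 CPM in BafA1 NPC, against 76.6 ± 10.8 CPM in control NPC (log2 change 1.19 ± 0.15 SE, edgeR adjusted p = 1.36e-04), and TXNIP rose to 407 ± 85.9 CPM, against 224 ± 44.5 CPM (0.86 ± 0.19, adjusted p = 0.00375). MGA, a repressor that also pairs with MAX, fell by 0.57 on the log2 scale (SE 0.10, adjusted p = 8.46e-04). MLXIP itself was at 47.2 ± 4.45 CPM in BafA1 NPC and 49.4 ± 7.06 CPM in control NPC (adjusted p = 0.664), and MLXIPL was under 0.4 CPM in both groups.

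Known targets of MYC were given by 3 lists, whose counts stand beside 20.8% higher and 20.7% lower over all genes tested. Of 29 nucleolar and ribosome biogenesis genes 15 fell and 2 rose in BafA1 NPC against control NPC, with a median log2 change of -0.38 (0.00 over all genes tested). This was while MYC itself rose. UBTF, which encodes a factor of RNA polymerase I, fell by 1.21 (SE 0.14, edgeR adjusted p = 8.21e-05), and UTP20, of the small ribosomal subunit processome, fell by 1.00 (SE 0.11, adjusted p = 6.37e-05). FBL, the methyltransferase gene fibrillarin, rose by 0.85 ± 0.11 (adjusted p = 1.71e-04), as did PES1 (0.40 ± 0.10, adjusted p = 0.00734), which was picked with its value in view. The rises numbered 4 without BafA1 replicate 1. In control NPC against hESC 28 of the 29 fell, against 31.6% of all genes tested, with a median of -1.04 (0.03 over all genes). The remaining gene, RRN3, had -0.11 (edgeR adjusted p = 0.318).

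Of 24 metabolic target genes 10 rose and 7 fell in BafA1 NPC against control NPC (median 0.01), and the falls numbered 11 under scaling by library size alone. The hexokinase gene HK2 rose by 2.37 ± 0.20 (edgeR adjusted p = 1.36e-05), the glucose transporter gene SLC2A1 by 1.97 ± 0.16 (adjusted p = 1.16e-05) and the amino acid transporter gene SLC7A5 by 1.41 ± 0.13 (adjusted p = 2.51e-05). Of the same 24 genes 16 fell and 2 rose in control NPC against hESC (median -0.56), against 31.6% and 33.0% of all genes tested. Of 16 cell cycle and translation targets 8 fell and 2 rose in BafA1 NPC against control NPC (median -0.37). The phosphatase gene CDC25A fell by 1.11 (SE 0.11, adjusted p = 3.79e-05), the cyclin gene CCNE1 by 1.14 (SE 0.13, adjusted p = 5.86e-05) and E2F2, of the E2F factors that drive S phase, by 1.47 (SE 0.20, adjusted p = 1.81e-04). Of these genes 8 fell and 4 rose in control NPC against hESC (median -0.32), against 31.6% and 33.0% of all genes. The rises numbered 2 without control replicate 1 or hESC replicate 1.

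Of 15 genes known to be repressed by MYC 9 rose and 2 fell in BafA1 NPC against control NPC, against 20.8% and 20.7% of all genes (median 0.52), so that MYC and most of this list rose together. CDKN1C, an inhibitor of cyclin-dependent kinases, rose by 1.74 ± 0.16 (edgeR adjusted p = 1.89e-05), GADD45B, a stress response gene, by 1.98 ± 0.19 (adjusted p = 2.30e-05) and THBS1, which encodes a matrix protein, by 1.00 ± 0.09 (adjusted p = 2.23e-05). The genes that fell were NDRG2 (-0.82) and CEBPA (-0.98), named after their values were seen, and CEBPA was under 1 CPM in both groups. The falls numbered 1 without BafA1 replicate 1 or 3 or control replicate 1 or 2. Against hESC, 11 rose and 3 fell in control NPC (median 1.71), beside 33.0% and 31.6% of all genes tested.

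**Figure D4:**
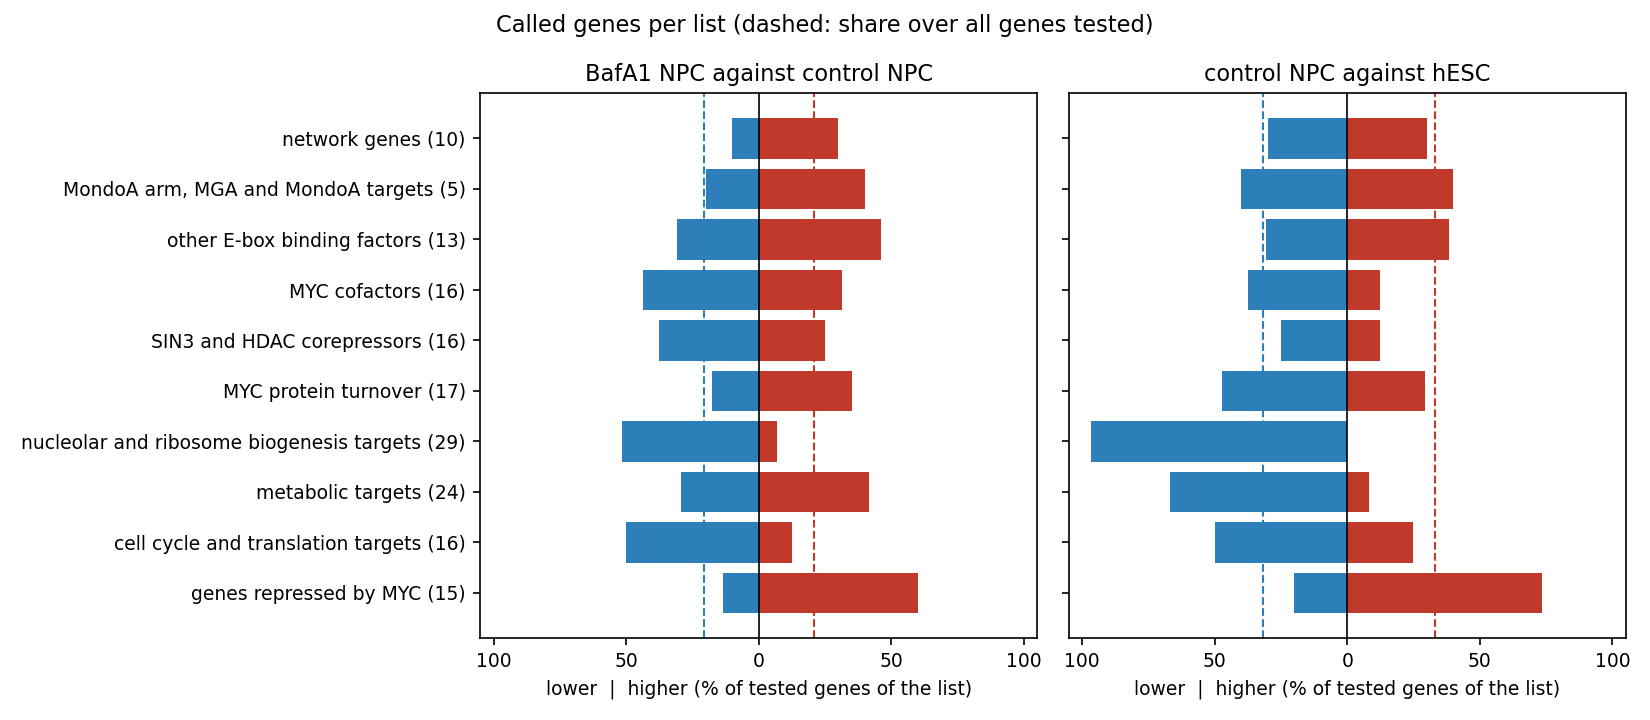
Percent of tested genes of each list called higher (red, to the right) or lower (blue, to the left) by edgeR in BafA1 NPC relative to control NPC (left panel) and in control NPC relative to hESC (right panel), with the number of genes in brackets and the share over all genes tested as dashed lines (20.8% and 20.7% for the first comparison, 33.0% and 31.6% for the second). The nucleolar list extends to the lower side in both panels, and the genes repressed by MYC extend to the higher side.

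Partners and regulators of the network proteins changed in both directions. Of 16 MYC cofactors 5 rose and 7 fell in BafA1 NPC against control NPC, where 20.8% of all genes rose and 20.7% fell. KAT2A, an acetyltransferase gene, rose by 0.60 ± 0.08 (edgeR adjusted p = 1.77e-04), while ACTL6A and RUVBL1, which encode subunits of chromatin remodelling complexes, fell by 0.72 (SE 0.10, adjusted p = 1.70e-04) and 0.58 (SE 0.09, adjusted p = 3.47e-04). The rises numbered 2 without BafA1 replicate 3 or control replicate 2 or 3, and the falls 4 without BafA1 replicate 2 or control replicate 1 or 2. Of 16 SIN3 and HDAC corepressor genes 4 rose and 6 fell. ING1 rose by 0.86 ± 0.14 (adjusted p = 6.15e-04) and SAP30 by 0.65 ± 0.12 (adjusted p = 0.00111), and BRMS1 fell by 0.53 (SE 0.12, adjusted p = 0.00344). SIN3A fell by 0.35 and SIN3B rose by 0.37, named after their values were seen. In control NPC against hESC 2 cofactors rose and 6 fell, and 2 corepressor genes rose and 4 fell. Over all genes tested 33.0% rose and 31.6% fell in that comparison. The counts of the corepressor genes became 4 and 9 after correction for GC and length.

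Of 17 genes that act on the stability of MYC protein 6 rose and 3 fell in BafA1 NPC against control NPC, so that 9 of 17 were called against 41.5% of all genes. FBXW7, which encodes the ubiquitin ligase subunit that marks MYC for degradation, rose by 0.83 ± 0.09 (edgeR adjusted p = 4.49e-05). CIP2A, whose product protects MYC from a phosphatase, fell by 0.86 (SE 0.09, adjusted p = 3.53e-05), and the ligase gene BTRC fell by 0.79 (SE 0.10, adjusted p = 9.99e-05). In limma on log2(FPKM + 1) the rises numbered 1. Against hESC, 5 rose and 8 fell in control NPC, beside 33.0% and 31.6% of all genes tested. These rises numbered 3 without control replicate 1 or 2 or hESC replicate 2 or 3.

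Of 6 noncoding genes beside the network genes only PVT1 and MYCNOS passed the filter on low counts. PVT1, a long noncoding RNA gene next to MYC on chromosome 8, rose to 20.9 ± 4.62 CPM in BafA1 NPC, against 7.83 ± 0.839 CPM in control NPC (log2 change 1.42 ± 0.16 SE, edgeR adjusted p = 6.37e-05). In control NPC against hESC, where MYC fell by 3.64, PVT1 was at 7.83 ± 0.839 CPM and 9.29 ± 0.758 CPM (-0.25 ± 0.16, adjusted p = 0.196). MYCNOS, on the strand opposite MYCN, was at 0.339 ± 0.129 CPM in control NPC and 1.37 ± 0.397 CPM in hESC and fell by 2.01 (SE 0.46, adjusted p = 0.00213). The library kit marks strand, but the counting is not stated to use it, so reads of MYCN and MYCNOS may not be told apart.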

How the data were processed

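The authors deposited a table of raw read counts per gene and tables of FPKM per gene for each group, all with 1 column a library, per the file headers. The labels' protocols name a kit for stranded mRNA libraries, and reads were trimmed with Trimmomatic with GRCh38 as the build, per the submitters' processing notes. Neither aligner nor counter was given in the sources used here. Control columns were matched to the untreated NPC, the only group left, and 0 columns were unused.

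Counts were filtered by filterByExpr, scaled by TMM and tested in edgeR 4.0.16 (R 4.3.3) with 1 term per group over all 9 libraries (glmQLFTest, two-sided). P-values were adjusted over all 20685 genes tested. The SE of a log2 change was derived as the absolute change divided by the square root of that test's F statistic. Alternatives used limma 3.58.1, DESeq2 1.42.0, other scalings and offsets for GC content and length from GENCODE 29 transcripts, which gave values for 84.5% of tested genes. Counts of replicates differed beyond sampling noise (chi-square over its degrees of freedom 10.6 to 69.1), so none was a copy. Changes are relative to the trimmed mean of all genes.

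The network genes, the 10 gene lists and the alternatives were chosen with earlier results of these data known. Named genes were all 10 network genes, for each list the 3 genes of smallest adjusted p in BafA1 NPC against control NPC among those of 5 CPM or more in the higher group, and the 3 closest in pattern.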

Additional observations from a re-analysis of the deposited data

How the results depend on the processing

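Over 16 alternative settings, the calls of MYC, MXI1, MXD1 and MXD4 in BafA1 NPC against control NPC were kept in all. Of 160 values of the network genes in each comparison, 133 kept direction and call in BafA1 NPC against control NPC, 142 in control NPC against hESC and 148 in BafA1 NPC against hESC, 20, 7 and 7 turned sign, and the rest gained or lost a call. The network genes called lower in BafA1 NPC against control NPC numbered 2 in place of 1 under library size alone, limma on log2(FPKM + 1) or log2(FPKM + 0.1), and removal of GC and length trends with or without the replicate block. Those called higher numbered 3 to 5 when 1 library was left out. Signs turned for genes not called in the comparison and for CIP2A and BTRC, which were called. In BafA1 NPC against control NPC MYCL turned to -0.115 (library size alone), -0.00261 (no filter), -0.115 and -0.145 (limma on FPKM + 1 and + 0.1), -0.0150 (replicate block) and -0.0437 and -0.0577 (GC and length trends removed, without and with the block), and to -0.179 to 0.149 with 1 library left out. MNT turned to -0.0827 (library size alone), -0.140 and -0.173 (limma) and -0.126 and -0.132 (GC and length), with -0.0567 to 0.131 when 1 library was left out, and MAX to -0.00620 (library size alone) and -0.0981 and -0.105 (limma). In control NPC against hESC MAX turned to 0.0803 (library size alone), 0.0386 and 0.0411 (limma) and 0.117 and 0.117 (GC and length). With GC and length trends removed, without and with the block, MNT turned to 0.25 and 0.26, MGA to -0.43 and -0.43, CIP2A to -0.18 and -0.18 and BTRC to -0.0335 and -0.0345. In the turned direction MNT and MGA were called in both fits, and CIP2A with the block (edgeR adjusted p = 0.0440). RLE factors and DESeq2 turned MGA to -0.0202 and -0.0202 and BRMS1 to -0.0219 and -0.0219, and with 1 library left out MGA ranged from -0.0150 to 0.0630 and BRMS1 from -0.0544 to 0.115. In BafA1 NPC against hESC MAX turned to -0.0595 and -0.0640 (limma), and GC and length removal turned MNT to 0.124 and 0.124, MLX to 0.0571 and 0.0529 and KAT2A to 0.33 and 0.33. Of these KAT2A was called in the turned direction, in both fits. FBL turned to -0.0151 (library size alone), -0.0197 and -0.0197 (RLE and DESeq2) and -0.103 and -0.103 (limma). With 1 library left out MLX ranged from -0.187 to 0.0282, KAT2A from -0.0993 to 0.0134 and FBL from -0.0874 to 0.108. Per kb of the longest GENCODE transcript, chosen after seeing the data, the share of MYC in the family was 42.2%, 15.0% and 44.3% in BafA1 NPC, control NPC and hESC and the ratio of antagonists to family 3.52, 2.98 and 0.419. The cause was not tested. Scaling by library size alone moved the median log2 change of all tested genes in BafA1 NPC against control NPC to -0.12 and in control NPC against hESC to 0.14, from 0.00 and 0.03. Genes called in BafA1 NPC against control NPC then numbered 3104 higher and 5681 lower, in place of 4309 and 4277, and 2941 and 5729 by limma on log2(FPKM + 1). Correlations of deviations between libraries of the same replicate number were -0.04 to 0.07. They showed no clear pairing, but with 3 libraries per group they cannot exclude it. The replicate block called 4112 genes higher and 4130 lower in BafA1 NPC against control NPC, 6694 and 6422 in control NPC against hESC and 7197 and 7098 in BafA1 NPC against hESC. At these depths a floor of 3 counts is 0.043 to 0.0696 CPM, below every network gene.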

Other observations

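Other factors that bind E-boxes also changed in BafA1 NPC against control NPC, where 6 of 13 rose and 4 fell, against 20.8% and 20.7% of all genes tested. BHLHE40, a repressor of the circadian clock, rose to 226 ± 52.8 CPM in BafA1 NPC, against 31.0 ± 4.93 CPM in control NPC (log2 change 2.87 ± 0.19 SE, edgeR adjusted p = 4.68e-06). Its relative BHLHE41 rose to 22.0 ± 5.06 CPM, against 5.32 ± 1.89 CPM (2.05 ± 0.28, adjusted p = 1.70e-04), and TFAP4, a known MYC target, rose to 19.4 CPM, against 12.6 CPM (0.62 ± 0.11, adjusted p = 8.67e-04). The clock activators CLOCK (-0.65) and BMAL1 (-0.74) and the factor USF1 (-0.49) fell, and TFE3, a regulator of lysosomal genes, rose by 0.60 ± 0.11 (adjusted p = 9.55e-04), all named after their values were seen. In control NPC against hESC 5 rose and 4 fell, against 33.0% and 31.6% of all genes tested. These falls numbered 2 without control replicate 2 or 3 or hESC replicate 1.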
